A study of Rattus norvegicus with 9 samples.

Results

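Txnip encodes thioredoxin-interacting protein and Txn1 encodes thioredoxin, and both transcripts were followed in lumbar dorsal root ganglia of rats. They are 2 of the 10411 genes that have a probe set annotated to a single symbol. All probe sets annotated to these symbols alone were taken, which gave 1 for each gene, and both passed the filter on low signal. The genes were selected on measured values, namely the log2 differences of Txnip between rats injected with streptozotocin (STZ) and normal rats, which were already known, and its binding partner was taken with it. Differences of both genes from normal rats are therefore given as a description, with no test. Streptozotocin kills pancreatic beta cells and so deprives rats of insulin.

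The 3 groups were STZ-injected rats treated with FK1706, an immunophilin ligand, STZ-injected rats given vehicle, and normal rats given vehicle. All were Sprague-Dawley rats. The labels state neither their age nor the dose of the drug. Ganglia of levels L4 to L6 were sampled when dosing had lasted 1, 2 or 3 weeks, on the following day. Every array, of 9 in all, holds RNA pooled from 5 rats, so a group has 1 array a week. No group has replicate pools in the same week. The spread behind the p-values therefore mixes variation between pools with changes of the group differences over weeks. No normal rats were given FK1706, so its difference from normal cannot be split into a part of STZ and a part of the drug.

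Thioredoxin is a small protein that reduces disulfide bonds in other proteins and is itself recharged by thioredoxin reductase with electrons from NADPH. Thioredoxin-interacting protein belongs to the alpha-arrestins, binds reduced thioredoxin and inhibits it, and also lowers glucose uptake by promoting the removal of glucose transporters from the cell surface. Its gene is a well-known target of the glucose-sensing transcription factors MondoA and ChREBP, and another alpha-arrestin gene, Arrdc4, is a target of the same factors.

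In GRCr8, Txnip lies on chromosome 2 at chr2:186781933-186785736 and Txn1 on chromosome 5 at chr5:77507455-77519685. Of the 2 genes, 1 has an entry in the RefSeq promoter table (GRCr8), which is Txn1. Its promoter is shown as that of thioredoxin itself, and the promoter of Arrdc4 is shown because that gene is the alpha-arrestin described beside Txnip. Capitals mark 4 motifs on either strand. The E-box is CACGTG, and glucose-sensing factors bind pairs of such elements. The CCAAT box is named after its letters. The GC box is GGGCGG, and the TATA box is TATAAA.
Txn1, minus strand, chr5:77519792-77519935: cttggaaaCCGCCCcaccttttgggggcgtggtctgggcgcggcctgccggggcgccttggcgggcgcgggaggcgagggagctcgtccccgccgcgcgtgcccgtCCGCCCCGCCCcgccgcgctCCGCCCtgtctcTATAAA
Arrdc4, minus strand, chr1:131793439-131793675: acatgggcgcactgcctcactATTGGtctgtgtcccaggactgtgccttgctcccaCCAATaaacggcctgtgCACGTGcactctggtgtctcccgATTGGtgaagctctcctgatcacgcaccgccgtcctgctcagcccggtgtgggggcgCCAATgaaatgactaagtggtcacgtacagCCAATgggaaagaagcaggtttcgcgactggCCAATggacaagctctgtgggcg
The Txn1 stretch of 144 bases holds 4 GC boxes, 2 of which overlap, and 1 TATA box, but no E-box and no CCAAT box. It stops at the TATA box because the annotated start of the gene coincides with an ATG. The Arrdc4 stretch of 237 bases holds 1 E-box and 6 CCAAT boxes, and neither a GC box nor a TATA box. Among 33469 promoters cut to the same lengths, 15.7% hold a GC box and 7.44% a TATA box in 144 bases, while 5.29% hold an E-box and 32.9% a CCAAT box in 237 bases. The share of 7.44% is no background for Txn1, because its stretch was cut to end at that motif. The 33469 promoters were cut by length alone, so the share of 15.7% comes from windows chosen in another way. These matches are a description of the letters and not of binding.

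The 2% trimmed mean of the deposited signal lay between 360 and 532 units on the 9 arrays and was lowest in week 3, so the arrays were put on one scale by quantile normalization. Before that step, the median log2 difference over the probe sets tested was -0.17 for STZ FK1706 against normal, -0.10 for STZ vehicle against normal and -0.07 between the STZ groups (FK1706 minus vehicle). Values below leave this shift out, except where they are said to be deposited signals. All 8 sensory neuron markers, among them the peripherin gene Prph and the heavy neurofilament gene Nefh, were measured. Their summed normalized signal was 41534 to 41872 units in STZ FK1706 arrays, 40767 to 42474 in STZ vehicle arrays and 41271 to 43075 in normal arrays. The sum rests mostly on the brightest of the 8. Taken singly, 2 had positive and 6 negative log2 differences in STZ vehicle against normal, with a median of -0.02. In STZ FK1706 against normal 4 were positive and 4 negative, also with a median of -0.02.

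Txnip was higher in both STZ groups than in normal ganglia in every week. On the normalized log2 scale it was at 11.42, 11.50 and 11.37 in weeks 1, 2 and 3 in STZ FK1706 rats, at 11.39, 11.53 and 11.60 in STZ vehicle rats and at 10.69, 10.93 and 10.90 in normal rats. All 6 STZ arrays lay above all 3 normal arrays, and the STZ groups overlapped each other. The deposited signals were 2940, 2768 and 2145 units in STZ FK1706, 3203, 2914 and 2532 in STZ vehicle and 1988, 2160 and 1664 in normal arrays. On that scale the lowest FK1706 array, that of week 3, lay just under the highest normal array, that of week 2, while each STZ array was above the normal array of its own week.

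**Figure D1:**
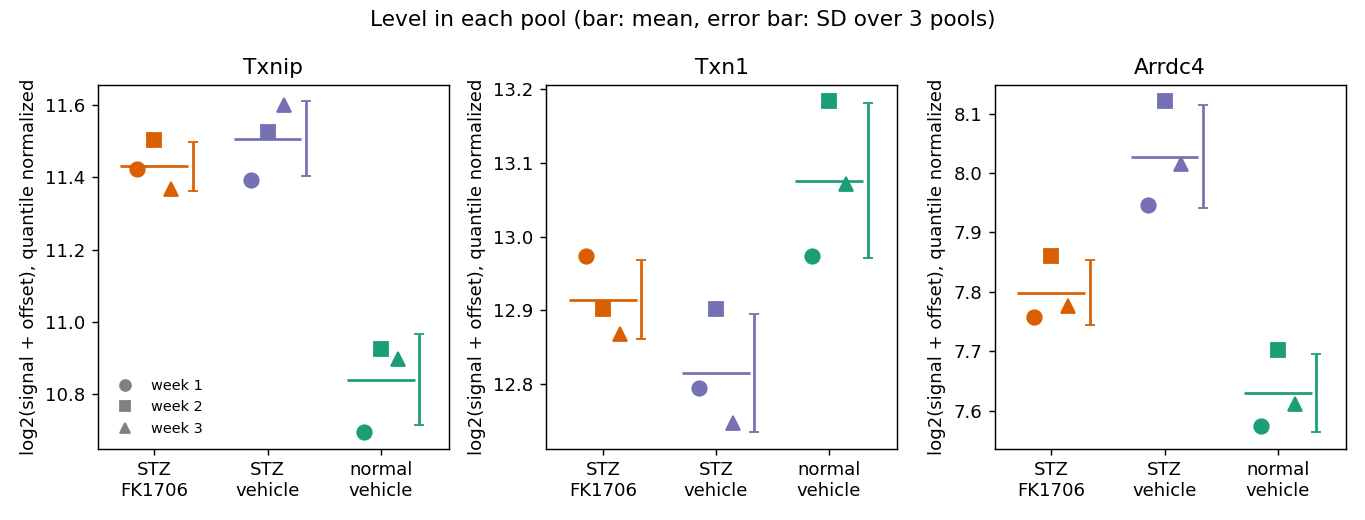
Level of Txnip, Txn1 and Arrdc4 in each of the 9 pools, as log2 of the signal plus an offset of 18.4 units after quantile normalization, with STZ FK1706, STZ vehicle and normal vehicle from left to right. Points are pools of weeks 1, 2 and 3, horizontal bars are means and error bars the SD over 3 pools. Txnip is higher and Txn1 mostly lower in both STZ groups than in normal rats, and Arrdc4 in STZ FK1706 lies between the other groups.

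Group means of Txnip were 11.43 ± 0.068 in STZ FK1706, 11.51 ± 0.104 in STZ vehicle and 10.84 ± 0.126 in normal rats (SD over 3 weeks, n = 3 each). From high to low the order was thus STZ vehicle, STZ FK1706 and normal, and the first 2 differed by less than the SD of the STZ vehicle arrays. STZ FK1706 was 1.51-fold above normal, with log2 differences of 0.73, 0.58 and 0.47 in weeks 1, 2 and 3. STZ vehicle was 1.59-fold above normal, with 0.70, 0.60 and 0.70. Against the background of all 9531 probe sets tested, 5.91% were higher without overlap in STZ FK1706 than in normal and 6.17% in STZ vehicle than in normal. Txnip was the 1 probe set (0.0105%) that was at least 1.5-fold higher in STZ vehicle than in normal in each week. By signed log2 difference from normal it ranked 16th from the top in STZ FK1706 and 9th in STZ vehicle. These counts describe the contrasts that led to the choice of the gene.

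Txn1 was lower in STZ vehicle than in normal ganglia, while STZ FK1706 arrays touched the normal range. It was at 12.97, 12.90 and 12.87 in weeks 1, 2 and 3 in STZ FK1706 rats, at 12.80, 12.90 and 12.75 in STZ vehicle rats and at 12.97, 13.18 and 13.07 in normal rats. All 3 STZ vehicle arrays lay below all 3 normal arrays, while the week 1 FK1706 array was level with the week 1 normal array. Equal values in 2 arrays arise where a probe set has the same rank in both, because quantile normalization gives equal ranks equal values. The deposited signals were 8421, 7232 and 6417 units in STZ FK1706, 8247, 7488 and 5885 in STZ vehicle and 9667, 9699 and 7688 in normal arrays, so on that scale both STZ groups were below normal in every week.

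Group means of Txn1 were 12.91 ± 0.053 in STZ FK1706, 12.82 ± 0.080 in STZ vehicle and 13.08 ± 0.105 in normal rats (SD over 3 weeks, n = 3 each). From low to high the order was thus STZ vehicle, STZ FK1706 and normal, and neighbours in that order were not fully apart. The week 3 FK1706 array lay below the highest STZ vehicle array, that of week 2, and the highest FK1706 array was level with the lowest normal array. STZ FK1706 had a log2 difference from normal of -0.16 (SE 0.060), with 0, -0.28 and -0.20 in weeks 1, 2 and 3. STZ vehicle had -0.26 (SE 0.060), or 1.20-fold lower, with -0.18, -0.28 and -0.32. The background of probe sets lower without overlap in STZ vehicle than in normal was 6.63%. The gene table also holds Txn1l1, named as a thioredoxin 1-like gene, on chromosome 1. Probe sequences were not used here, so whether its transcript adds to the Txn1 signal was not tested.

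Within each array the deposited signal of Txnip can be set against that of Txn1. How this ratio differs from the normal array of the same week does not change if a whole array is multiplied by a factor. Quantile normalization is not such a factor, so on the normalized scale the values differ somewhat. The log2 ratio was 0.76, 0.78 and 0.63 above the normal array of the same week in STZ FK1706 rats and 0.92, 0.81 and 0.99 above it in STZ vehicle rats in weeks 1, 2 and 3. The ratio was thus above normal in all 6 STZ pools, a description that includes the Txnip differences that led to the choice of the genes. Over the 9 arrays Txnip and Txn1 correlated with r = -0.72 (Spearman rho = -0.64), a description of points that share the 3 groups.

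**Figure D2:**
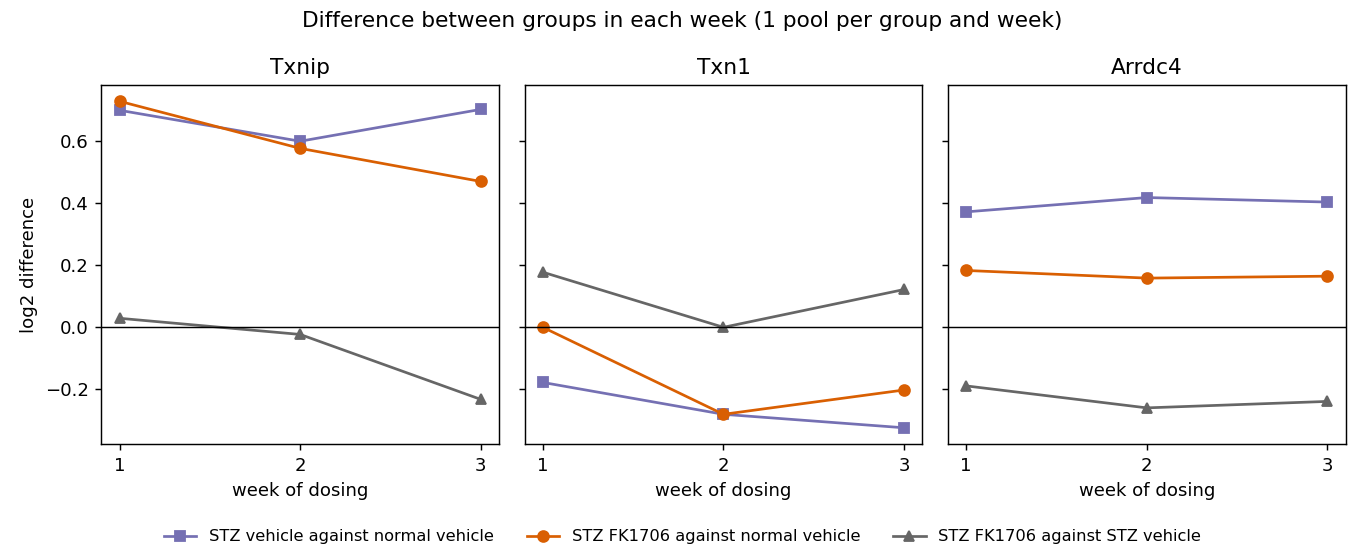
Log2 difference between groups in weeks 1, 2 and 3 for Txnip, Txn1 and Arrdc4, with 1 pool per group and week. The difference of Txnip from normal was 0.73, 0.58 and 0.47 in STZ FK1706 and 0.70, 0.60 and 0.70 in STZ vehicle, and Arrdc4 was lower in STZ FK1706 than in STZ vehicle in each week.

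Whether FK1706 changed either transcript in diabetic rats is a contrast that played no part in the choice of the genes, although it shares the STZ vehicle arrays with the contrast that did. Txnip had a log2 difference of -0.08 for STZ FK1706 against STZ vehicle (SE 0.073, 95% interval -0.24 to 0.08, limma adjusted p = 0.999), with 0.03, -0.02 and -0.23 in weeks 1, 2 and 3. Txn1 had 0.10 (SE 0.060, 95% interval -0.03 to 0.23, limma adjusted p = 0.999), with 0.18, 0 and 0.12. Neither passed, and the intervals leave room for modest differences in either direction. In this comparison 0 of 9531 probe sets passed in limma (0% called), with 319 at an unadjusted p under 0.05, or 3.35%.

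Time on study was tested over the 3 groups together. The mean of Txnip over groups was 11.17, 11.32 and 11.29 in weeks 1, 2 and 3 and that of Txn1 was 12.91, 13.00 and 12.90. Neither passed the moderated F test for weeks in limma (adjusted p = 0.585 for Txnip and adjusted p = 0.66 for Txn1), where 0.0525% of probe sets did and 10.7% had an unadjusted p under 0.05. On the deposited scale both passed, as did 5934 probe sets, since the signal of all arrays was lower in later weeks. A linear change with week of the difference between the STZ groups, FK1706 minus vehicle, was also tested. Its slope was -0.13 per week for Txnip (SE 0.090, limma adjusted p = 0.999) and -0.03 for Txn1 (SE 0.077, limma adjusted p = 0.999), and 0 probe sets passed, with 340 (3.57%) at an unadjusted p under 0.05. As a description, with no test, the slope of the difference from normal was -0.13 for Txnip in STZ FK1706 and 0.00 in STZ vehicle, and -0.10 and -0.07 for Txn1 in the same groups.

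The other alpha-arrestins had values of both signs. Of 5 listed, 3 were tested and 0 passed in any comparison. Arrdc4 was at 7.76, 7.86 and 7.78 in weeks 1, 2 and 3 in STZ FK1706 rats, at 7.95, 8.12 and 8.02 in STZ vehicle rats and at 7.57, 7.70 and 7.61 in normal rats. On this scale the 3 groups did not overlap, with STZ FK1706 between the others. Of all probe sets tested, 6.17% were higher without overlap in STZ vehicle than in normal and 5.91% in STZ FK1706 than in normal. The deposited signals of Arrdc4 in STZ FK1706 (209, 200 and 174 units) and normal arrays (208, 208 and 163) overlapped, with FK1706 lower in week 2. The log2 difference of Arrdc4 was 0.40 for STZ vehicle against normal (SE 0.121, limma adjusted p = 0.433), with 0.37, 0.42 and 0.40 in weeks 1, 2 and 3. For STZ FK1706 against STZ vehicle it was -0.23 (SE 0.121, limma adjusted p = 0.999), with -0.19, -0.26 and -0.24, against a background of 3.53% of probe sets lower without overlap. For STZ FK1706 against normal it was 0.17 (limma adjusted p = 0.723), and 0.01 on the deposited scale. Arrdc4 was dim, near the filter of 7.35, with deposited signals of 163 to 266 units. Arrdc3, an alpha-arrestin that acts in receptor trafficking, had -0.20 for STZ vehicle against normal, with -0.31, 0.25 and -0.54 in weeks 1, 2 and 3, and Arrdc1 had 0.07. Arrdc2 had no probe set of its own.

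Among the other genes of the thioredoxin system, 22 of 25 listed were tested, and 0 passed in any comparison. For STZ vehicle against normal, 9 had positive and 13 negative values, with a median of -0.03 beside 0.00 for all probe sets tested. The cytosolic reductase gene Txnrd1, which recharges thioredoxin, had 0.00 (SE 0.079) in STZ FK1706 against normal and 0.06 (SE 0.079) in STZ vehicle against normal. Its mitochondrial counterparts Txnrd2 and Txn2 had 0.14 (SE 0.154) and -0.10 (SE 0.095) in STZ vehicle against normal, and -0.25 and 0.08 in STZ FK1706 against STZ vehicle. The peroxiredoxin genes Prdx2 and Prdx5, whose products reduce peroxides with electrons from thioredoxin, had 0.08 (SE 0.052) and 0.01 (SE 0.066) for STZ vehicle against normal. Glrx, the glutaredoxin gene of the glutathione-based counterpart, had 0.25 (SE 0.107, limma adjusted p = 0.55), with 0.09, 0.49 and 0.18 in weeks 1, 2 and 3. Srxn1, the sulfiredoxin gene, had -0.06. The highest and the lowest values of the list for STZ vehicle against normal were singled out after they had been seen. The highest was that of Txnrd3, the third reductase gene, which had 0.40 (SE 0.122, limma adjusted p = 0.433) in STZ FK1706 and 0.26 (SE 0.122, limma adjusted p = 0.582) in STZ vehicle against normal, with positive values in every week in both. The lowest was that of Prdx4, a peroxiredoxin gene of the endoplasmic reticulum, which had -0.27 (SE 0.078) both in STZ FK1706 and in STZ vehicle against normal, with limma adjusted p of 0.397 and 0.384.

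**Figure D3:**
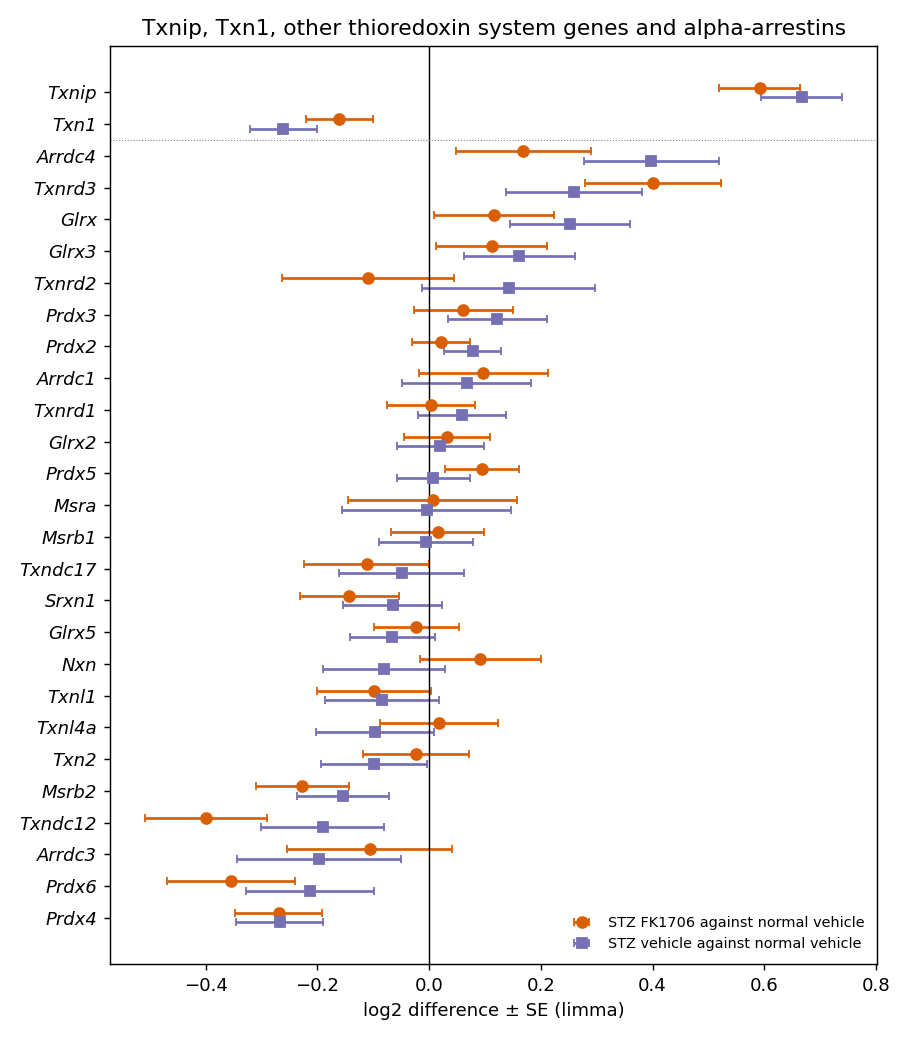
Log2 difference ± SE from the limma model, STZ FK1706 against normal vehicle (circles) and STZ vehicle against normal vehicle (squares), for Txnip and Txn1 above the dotted line and for the other tested thioredoxin system genes and alpha-arrestins below it. Both Txnip values, 0.59 and 0.67, lie to the right of all others. Txnip was chosen with these differences known, so its place is a description and was not tested. Of the genes below the line 0 passed the test.

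In STZ vehicle against normal, 6 of 9531 probe sets passed (0.063% called), and in STZ FK1706 against normal 0 passed, with 775 at an unadjusted p under 0.05 (8.13%). The count came to 0 when the STZ vehicle pool of week 2 or week 3 or the normal pool of week 3 was left out, and to 1 when the STZ vehicle pool of week 1 was left out. The 9531 probe sets include Txnip and Txn1, chosen with earlier results of these data known, so these counts are no support for either gene.

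Of 11 listed partners of thioredoxin-interacting protein, 5 were tested and 0 passed in any comparison. On the glucose-sensing list, which holds the factors and their known targets, Arrdc4 among them, 12 of 21 genes were tested and 0 passed. Of these, 6 had positive and 6 negative values in STZ vehicle against normal, with a median of 0.00 beside 0.00 for all probe sets. Mlxip, which encodes MondoA, had -0.12 (SE 0.141), and Mlx, the common partner of MondoA and ChREBP, had 0.07 (SE 0.105). Mlxipl, which encodes ChREBP, was under the filter on low signal. Among glucose transporters, Slc2a1 had -0.22 (SE 0.094) in STZ FK1706 and -0.11 (SE 0.094) in STZ vehicle against normal, and Slc2a3, the neuronal transporter, had 0.06 (SE 0.162) and 0.18 (SE 0.162). Slc2a4, the insulin-responsive transporter, was under the filter. Prkaa1, a catalytic subunit of the energy-sensing kinase AMPK, which phosphorylates thioredoxin-interacting protein and so promotes its degradation, had 0.10 (SE 0.096) in STZ vehicle against normal, and Prkaa2 was under the filter. Map3k5, Nlrp3 and Itch had no probe set annotated to them alone.

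By pattern over the 9 arrays, the genes most like Txnip were Ythdf1 (r = 0.94), Zdhhc3 (r = 0.94), Arfgef1 (r = 0.93), Cnih2 (r = 0.93) and Tmod1 (r = 0.92). Their log2 differences between STZ vehicle and normal were smaller than that of Txnip, at 0.10, 0.31, 0.25, 0.39 and 0.29. The genes most like Txn1 were Cops9 (r = 0.93), Abcd3 (r = 0.92), Ddr2 (r = 0.92), Ndufb10 (r = 0.92) and Serpinf1 (r = 0.91), with -0.24, -0.42, -0.21, -0.12 and -0.25. These are the 5 highest Pearson correlations for each gene among all genes tested, a selection that by itself gives high values, and the arrays share the 3 groups and the normalization.

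Schwann cell markers, 4 of 5 on the array, summed to 27421 to 28431 units in STZ FK1706, 26337 to 30285 in STZ vehicle and 29177 to 30506 in normal arrays. The FK1706 arrays thus lay below the normal ones, and the share of all probe sets with such a separation was not counted. This sum rests mostly on Pmp22 and Mbp, the brightest of the 4. Taken singly, all 4 had negative log2 differences in STZ FK1706 against normal, with a median of -0.10, and 0 passed. The 5 satellite glia markers summed to 16597 to 17047 units in STZ FK1706, 17139 to 17930 in STZ vehicle and 16502 to 17616 in normal arrays. Here the FK1706 arrays lay below the STZ vehicle ones. That sum rests mostly on Apoe, the brightest of the 5, with means of 13.53 in STZ FK1706 and 13.62 in STZ vehicle. Taken singly, 2 of the 5 had positive and 3 negative log2 differences between these groups, with a median of -0.01. The 5 fibroblast markers summed to 17654 to 20064 units in STZ FK1706, 16332 to 19093 in STZ vehicle and 19031 to 25630 in normal arrays. Neutrophil markers, 4 of 5 on the array, summed to 1266 to 2724, 950 to 1674 and 1488 to 2297 units. Skeletal muscle markers, 5 of 6 on the array, summed to 2032 to 3302, 1949 to 3296 and 2548 to 4835. Endothelial markers, 5 of 7 on the array and 2 of them over the filter, summed to 1238 to 1500, 1205 to 1515 and 1230 to 1466. The sums of the mural cell, macrophage, lymphocyte, red blood cell and adipocyte lists overlapped between all groups, as did those of the last 4 lists given. Set against the normal array of the same week, Schwann cell and fibroblast sums were lower in both STZ groups in every week. The same held for neutrophil sums in STZ vehicle and for skeletal muscle sums in STZ FK1706. How many of all probe sets were lower in every week was not counted. The fibroblast marker Col1a1 passed in STZ vehicle against normal, at -0.82 (limma adjusted p = 0.0117). Taken singly, 1 of the 5 fibroblast markers had a positive and 4 a negative log2 difference there, with a median of -0.08. Of these, 2 were lower in every week. The marker Dcn had means of 12.95 in STZ vehicle and 13.03 in normal arrays, Lum had 11.05 and 11.10, and Pdgfra had 9.56 and 9.49. None of the markers in these lists was at 0 on all arrays. Their part in the Txnip and Txn1 results was not tested, and in pooled tissue fewer cells of a type and less RNA per cell cannot be told apart.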

How the data were processed

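RNA of pooled rat ganglia was hybridised to 9 one-colour arrays. The deposited values are linear MAS5 intensities, 1 per probe set, per the submitters' processing notes (version not stated there). Of 15866 probe sets other than 57 controls, 12783 had 1 gene symbol, 312 several and 2771 none. Symbols were checked through Entrez identifiers against GRCr8, which held 12754 and changed 0.

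To every value 18.4 units were added (the 10th percentile over the whole table), log2 was taken, and arrays were quantile normalized. The 9531 probe sets whose mean reached the 40th percentile were tested. limma 3.58.1 in R 4.3.3 fitted group and week over all 9 arrays (4 residual degrees of freedom; 2 for the linear week terms), with eBayes with a trend, two-sided tests and Benjamini-Hochberg adjustment over all probe sets tested at 0.05. The number of arrays limits the precision. Lists use the brightest probe set of each gene. The fit was also run on simulated data with independent noise and no week effect, and no result here rests on that run.

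Week was a block because every group was sampled in each week by design. Deviations from the group means correlated between same-week arrays, across probe sets, with r from 0.00 to 0.27 in week 1, 0.01 to 0.05 in week 2 and 0.17 to 0.32 in week 3.

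Txnip, Txn1 and all lists were chosen with earlier results of these data known. Named genes are both members, a list of genes named whatever their values, list members that passed and the 5 genes most like each member. The scaling, offset, filter, prior, probe set rule, week block and arrays left out were varied. Zbtb16 and Prdx1 of the named list had no probe set of their own.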

Additional observations from a re-analysis of the deposited data

How the results depend on the processing

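The 18 results on counts and on both genes were recomputed under up to 21 alternatives, which gave 351 values. Of these, 305 had the direction and call unchanged or lay within the spread between weeks. For counts of probe sets, a value within a set ratio of the main count, such as 4 or 8 beside 6, was taken as unchanged. On the deposited scale, 12, 0 and 89 probe sets passed in STZ vehicle against normal, STZ FK1706 against STZ vehicle and STZ FK1706 against normal, and 5934 for weeks. There the F for weeks was 10.73 for Txnip (limma adjusted p = 0.00555) and 19.33 for Txn1 (limma adjusted p = 0.0016), the Txnip difference from normal was 0.43 in STZ FK1706 and 0.57 in STZ vehicle, the slope of Txnip in STZ vehicle against normal was -0.041 and that of Txn1 in STZ FK1706 against STZ vehicle was 0.047. With trimmed mean scaling 1 probe set passed in STZ FK1706 against normal and 1 for weeks, and the slope of Txnip in STZ vehicle against normal was -0.025. With no filter or a prior without a trend 0 passed in STZ vehicle against normal and 0 for weeks (at an unadjusted limma p under 0.05, 1176 and 1470 with no filter, 782 and 1051 without the trend). In STZ FK1706 against normal 2 passed with a filter at the 60th percentile and 1 with 1 probe set per gene. With week left out as a replicate block, 1 probe set passed in STZ vehicle against normal, and no other call changed.

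Leaving out 1 array or 1 week gave 0 to 8 probe sets for STZ vehicle against normal, 0 to 2 for STZ FK1706 against normal and 0 to 14 for weeks. The Txnip difference for STZ FK1706 against STZ vehicle ranged from -0.14 to 0.0030, with the highest value without week 3. Over all alternatives its limma adjusted p was 0.926 or higher. The Txnip difference from normal ranged from 0.53 to 0.66 in STZ FK1706 and from 0.62 to 0.70 in STZ vehicle. The slope of Txnip in STZ vehicle against normal ranged from -0.088 to 0.091. The slopes of Txn1 ranged from -0.26 to 0.064 for STZ FK1706 against normal, -0.19 to 0.14 for STZ FK1706 against STZ vehicle and -0.19 to 0.033 for STZ vehicle against normal. Slopes were not run without the block, and without a whole week no residual degrees of freedom remain for them. For the 75 differences of named genes, 1508 of 1560 values moved by no more than the spread between weeks, 125 had the opposite sign and 0 passed. The cause of these changes was not tested, except that the deposited scale carries the fall in array signal.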

Other observations

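Txnip is also known as a gene that rises with glucocorticoids and that FOXO factors act on, so lists of such genes were read beside it. Of 14 tested glucocorticoid-responsive genes, 0 passed in any comparison, and the median for STZ vehicle against normal was 0.06 beside 0.00 for all probe sets. Tsc22d3, the glucocorticoid-induced leucine zipper gene, had 0.05 (SE 0.081) in STZ FK1706 and -0.06 (SE 0.081) in STZ vehicle against normal. Sgk1, a kinase gene of the same response, had 0.13 (SE 0.098) in both. Per1 had 0.14 and 0.08, Klf9 had -0.19 and -0.11, and Fkbp5, the co-chaperone gene, had -0.11 and 0.11 with an SE of 0.226. Ddit4, an inhibitor of mTORC1, had 0.46 (SE 0.123, limma adjusted p = 0.346) in STZ FK1706 and 0.26 (SE 0.123, limma adjusted p = 0.588) in STZ vehicle.

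Of 9 tested FOXO targets 0 passed, with a median of -0.01 for STZ vehicle against normal. Pdk4, which restrains pyruvate oxidation, had 0.18 (SE 0.153) in STZ FK1706 and 0.26 (SE 0.153) in STZ vehicle against normal, and Irs2 had 0.13 and 0.09 with an SE of 0.162. Of 11 tested NRF2 targets 0 passed, with a median of 0.06. The quinone reductase gene Nqo1 had -0.09 and 0.01 (SE 0.085), and the heme oxygenase gene Hmox1 had -0.14 and 0.03 (SE 0.190). Of 10 inflammasome genes 3 were tested and 0 passed, with a median of 0.11, and Il1b and Casp1 were under the filter on low signal.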
